A study of Mus musculus with 3 samples.

Results

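The genes described here encode the CREB and ATF transcription factors Creb1, Crem, Atf1, Atf2 and Atf4 and the coactivators Crebbp and Ep300, in area CA1 of the mouse hippocampus after contextual fear conditioning. Members were taken as all probe sets that the platform annotation assigns to exactly 1 gene, where that gene is one of these 7. This gave 9 probe sets of 5 genes, out of 10833 single-gene probe sets of 8251 genes. Creb1 had 3 probe sets, Crem and Atf2 had 2 each, and Atf4 and Crebbp had 1 each. Ep300 had none. Atf1 shared its only probe set with a pseudogene, so no value is given for either gene.

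All 3 arrays belong to 1 group, contextual fear conditioning in C57BL/6J mice (inbred, young, male). The animals spent 2 min in an unfamiliar chamber before each foot shock of 1 s at 0.5 mA, received 3 shocks, and were moved to the home cage 1 min after the third. Total RNA of CA1 was taken 6 h later. No unconditioned animals are among these samples, so no level can be read as induced or repressed, and whether each array carried RNA of a single animal or a pool is not stated in the labels.

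CREB, the product of Creb1, binds a short DNA element called the cyclic AMP response element (CRE) and is switched on when kinases driven by cyclic AMP, calcium or growth factors phosphorylate it. Phosphorylated CREB recruits Crebbp and Ep300, paralogous histone acetyltransferases that help start transcription. Crem is a close relative of Creb1 whose gene also yields short repressor forms known as ICER. Atf2 pairs with Jun and is activated by stress kinases, and Atf4 is made from its mRNA mainly when translation initiation is restrained, as in amino acid or endoplasmic reticulum stress. CREB in the hippocampus is best known for its role in long-term memory. Because phosphorylation and translation control much of this system, mRNA levels describe the supply of these factors and not their activity.

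The DNA letters that CREB reads were found in the RefSeq promoter windows of GRCm38.p6, which run from 250 bases before to 50 bases after a gene's start. The full CRE, TGACGTCA, which is its own reverse complement, occurred in 1.79% of 32851 windows. Counted by gene, 2.03% of 27025 genes had it in a window. Of the 25 genes in the list of CREB targets, 17 had a window and 4 of those held the full element. They are shown because they are the DNA partner of the factors described here, with the element in capitals, 5′ to 3′ on the gene's strand, ahead of the annotated start.

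Sst, chr16:23890874-23890903, minus strand: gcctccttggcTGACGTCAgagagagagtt
Scg2, chr1:79440076-79440105, minus strand: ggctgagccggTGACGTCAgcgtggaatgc
Pcsk1, chr13:75089768-75089797, plus strand: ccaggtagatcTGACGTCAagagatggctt
Dusp1, chr17:26508597-26508626, minus strand: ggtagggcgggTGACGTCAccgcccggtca

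Windows were found for 6 of the 7 members, all but Crem, and 0 of the 6 held the full element. The shorter core TGACG, contained in the full element, was searched on both strands. It was in the windows of 2 of the 6, Atf4 and Atf1, and of 23% of all genes with a window. Both matches are shown with the core, or its reverse complement CGTCA, in capitals. A match describes letters only and is not evidence of binding.

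Atf4, chr15:80255161-80255183, plus strand: tcggctttgacCGTCAgagcttt
Atf1, chr15:100227758-100227784, plus strand: tgaccacgcggTGACGcagcacgccgg

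Atf2, Atf4 and Crebbp gave signals well above the threshold on all 3 arrays, Crem lay at the threshold, and Creb1 lay under it. The threshold is 174.8, the median of all deposited signals, and stands in for a detection call. A lower signal is not proof that the mRNA was missing. Of the 5 genes, 4 had a mean above threshold at their brightest probe set and 3 were above it on every array. Over all 8251 named genes these shares were 59.1% and 52.9%. Counting only probe sets with the plain suffix, which leaves out both Crem probe sets and that of Crebbp, 2 genes were above threshold. Probe sets differ in how strongly they bind their target, so levels were not ranked between genes.

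**Figure D1:**
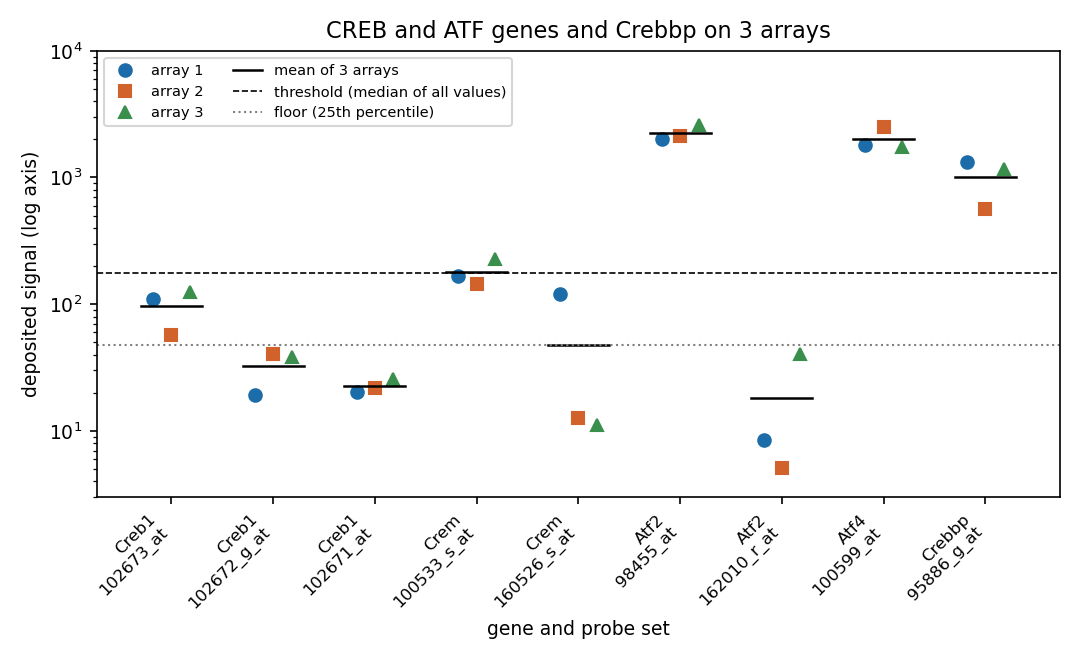
Deposited signal on a log axis for the 9 member probe sets, with 1 symbol per array, a bar at the mean of 3 arrays, a dashed line at the threshold of 174.8 and a dotted line at the floor of 47.5. Atf2, Atf4 and Crebbp each have 1 probe set far above the threshold, and the Creb1 probe sets lie under it on every array.

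The Creb1 gene is represented by 3 probe sets built on the same source sequence. The brightest, 102673_at, gave 110.0, 56.8 and 125.3 on arrays 1, 2 and 3, a mean of 97.4 ± 36.0 (SD, n = 3 arrays). The second, 102672_g_at, gave 19.1, 40.4 and 38.2, and the third, 102671_at, gave 20.4, 21.9 and 25.7. All 9 values were under threshold. For comparison, the highest of 15 control probe sets for bacterial transcripts not expected in mouse RNA was 54.1, 115.2 and 55.6 on the 3 arrays. Only 102673_at exceeded that level, on arrays 1 and 3, while both other probe sets stayed below it on every array. The low value of 102673_at on array 2 coincided with the highest bacterial control signal, and its log2 range of 1.19 fell to 0.23 without array 2. These probe sets therefore give at most a weak signal for the founding member of the family, and none was tested for spread between arrays at this threshold.

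Crem, the cyclic AMP-inducible relative of Creb1, gave 166.1, 144.4 and 226.6 at probe set 100533_s_at, a mean of 179.0 ± 42.6 (SD, n = 3 arrays). Array 3 alone was above threshold, and without array 3 the mean was 155.2, under it. All 3 values were above the highest bacterial control of their array. The other Crem probe set, 160526_s_at, gave 119.8, 12.7 and 11.2, high on array 1 and at the level of the bacterial controls on arrays 2 and 3. Both probe sets were designed from 1 source sequence, yet the highest array was array 3 for one and array 1 for the other. The annotation does not tell which Crem transcripts either probe set detects, so activator and ICER forms cannot be told apart. After scaling, 100533_s_at had a log2 range of 0.70 between its highest and lowest array, and 0.20 without array 3. For 160526_s_at the range depended on the floor set for low values, at 1.32 with a floor of 47.5, 2.85 with a floor of 16.5 and 0.12 with a floor of 109.6.

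Atf2, the Jun partner, gave 1994, 2121 and 2576 at probe set 98455_at, a mean of 2231 ± 306 (SD, n = 3 arrays). The 3 arrays were close, with array 3 highest and a log2 range of 0.41 that fell to 0.09 without array 3. The second Atf2 probe set, 162010_r_at, gave 8.5, 5.1 and 40.8, below the bacterial controls on every array. The reported level of Atf2 thus rests on 1 of its 2 probe sets.

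Atf4, the effector of the integrated stress response, gave 1817, 2501 and 1743, a mean of 2020 ± 418 (SD, n = 3 arrays). Arrays 1 and 3 were nearly equal and array 2 was higher. The log2 range was 0.47, and 0.01 without array 2.

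Crebbp, the acetyltransferase that docks on phosphorylated CREB, gave 1314, 569 and 1157, a mean of 1014 ± 393 (SD, n = 3 arrays). Every array was above threshold, but array 2 was well below both others, which were close together. On the log2 scale array 2 minus the mean of arrays 1 and 3 was -1.14. Of 6218 measured probe sets, 1.45% equalled or exceeded this shift on array 2 in the downward direction. That array and direction were picked from these same values, so the share does not measure how rare such a shift was on any array. Arrays more than 2-fold apart, as for Crebbp, were seen for 12.1% of measured probe sets. The log2 range was 1.21, and 0.14 without array 2.

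Whether a probe set varied between replicates more than others of its level was tested with limma, as the variance of the scaled log2 signal against an intensity-dependent prior fitted to all 6218 measured probe sets. Of these, 1, that of Ttr, passed at an adjusted p under 0.05 (0.0161%) and 324 had an unadjusted p under 0.05 (5.21%). The overall number of calls was 1, 0 and 44 without arrays 1, 2 and 3. The 4 measured member probe sets had 0 calls and 1 unadjusted p under 0.05. Crebbp had an unadjusted p of 0.0247 and an adjusted p of 0.89 (limma), with an adjusted p from 0.273 to 1 over 12 alternatives. Adjusted p was 0.988 for Crem, Atf2 and Atf4 alike (limma). Only Crebbp, 1 of the 4, had arrays more than 2-fold apart, as did 12.1% of all measured probe sets. The median log2 range was 0.59 for the 4 and 0.48 for all measured probe sets. A p above the threshold does not show that the arrays were alike.

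**Figure D2:**
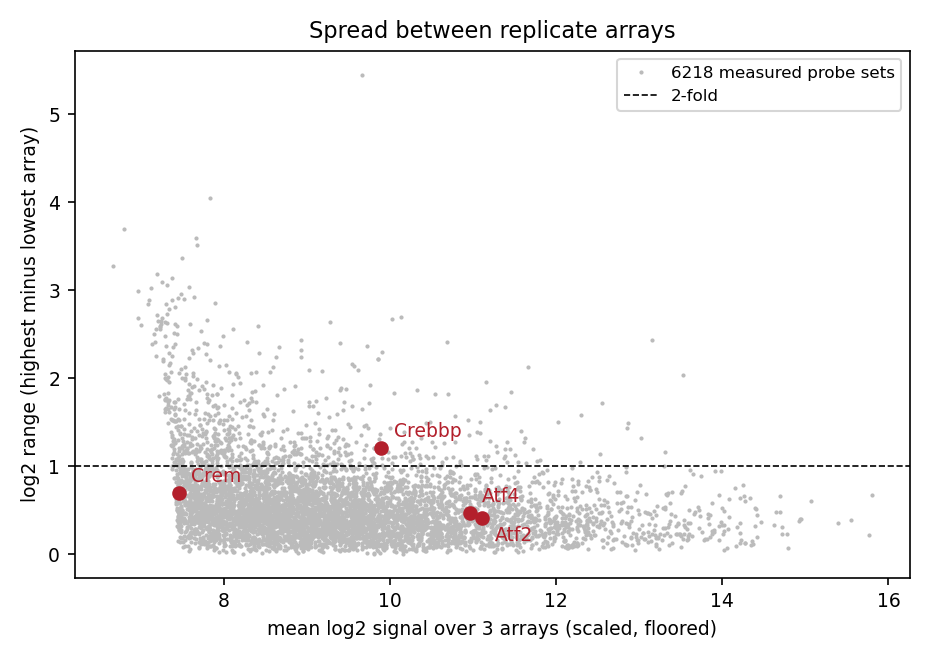
Log2 range between the highest and lowest of 3 arrays against mean log2 signal, for 6218 measured probe sets (grey) and the 4 measured member probe sets (red). Crebbp lies above the dashed 2-fold line at 1.21, and Crem, Atf2 and Atf4 lie below it among the other probe sets.

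Several other coactivator genes were, like Crebbp, lowest on array 2. The list holds nuclear coactivators and acetyltransferases, among which 7 of 12 genes had a probe set. Of the 7, 6 were above threshold, beside 59.1% of all named genes. Of these 6, 5 were lowest on array 2, an array on which 42.3% of all measured probe sets were lowest. Kat2a, which encodes the acetyltransferase GCN5, gave 558, 276 and 468. Its paralog Kat2b, which encodes PCAF, an acetyltransferase that binds Crebbp and Ep300, gave 537, 306 and 528. A second Kat2b probe set was under threshold, at 46.5, 11.5 and 60.3.

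The steroid receptor coactivator gene Ncoa3 gave 274, 150.2 and 222, and Cited1, which encodes a protein that binds Crebbp and Ep300, gave 263, 165 and 326. Both were under threshold on array 2. Cited2, the relative of Cited1, varied least, at 575, 484 and 531. Its array 2 lay at -0.15 from the mean of 3 arrays on the log2 scale, beside -0.76 for Crebbp. Ncoa1, another steroid receptor coactivator gene, went the other way at 301, 479 and 345. So being lowest on array 2 was common but not general among these coactivators, and the size of the difference varied. In limma, 0 of the 6 passed the variance test and 0 had an unadjusted p under 0.05. Ncoa2 was under threshold, at 37.0 ± 32.0. Kat2a and Kat2b were named by rule, and the other genes here were added after their values were seen.

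**Figure D3:**
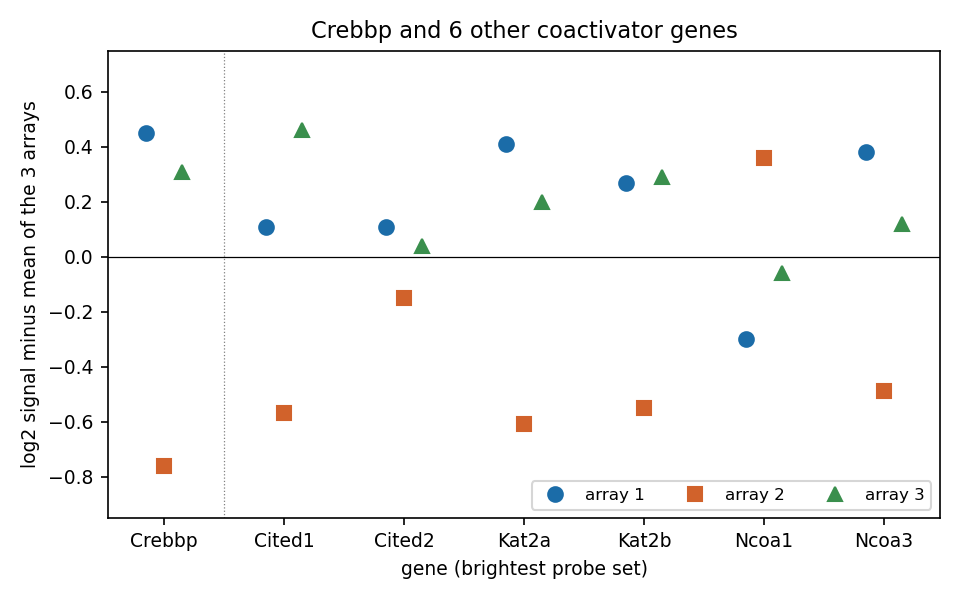
Log2 signal of each array minus the mean of 3 arrays, for Crebbp and 6 other coactivator genes above threshold. The orange squares of array 2 are the lowest point for Crebbp at -0.76 and for 5 of the other 6 genes, and the highest for Ncoa1 at 0.36.

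RNA controls and some marker lists also differed between arrays. For Gapdh, 3' signal divided by 5' signal came to 3.99 on array 1, 1.21 on array 2 and 3.94 on array 3. For Actb the same quotient came to 2.57, 1.86 and 3.50. The summed signal of 6 choroid plexus and ependyma markers, 4 of them above threshold, was 3879, 7580 and 2360. Most of that difference was Ttr, the transthyretin gene and the 1 call of the variance test over all probe sets (limma, adjusted p = 0.0492), at 1334, 4257 and 94.2. The other 5 markers summed to 2545, 3323 and 2266, and Aqp1 among them was lowest on array 2. The 4 CA3 and CA2 markers, 3 above threshold, summed to 2142, 6673 and 2709. Here the excess of array 2 over array 3 was carried by Nnat, the neuronatin gene, at 1042, 4862 and 885, and the other 3 markers summed to 1099, 1812 and 1824. The 5 thalamic markers, all above threshold on average, summed to 3020.5, 5287 and 2723. Most of the excess on array 2 was Cplx1, at 1417, 3458 and 1124. Tcf7l2 and Rora were also highest on array 2, while Prkcd was highest on array 1 and Lef1 was lowest on array 2. The 5 meningeal and fibroblast markers, 4 above threshold, set array 1 apart at 12205, 7219 and 7314. Most of that sum and of its difference was Ptgds, at 8808, 4634.5 and 4726. Mgp, Col1a1 and Col1a2 were also highest on array 1, and Col3a1, under threshold, on array 2. The 4 dentate granule markers, 3 above threshold, had level sums of 2159.5, 2119.6 and 2131, but the genes went different ways. Calb1, most of the sum, was lowest on array 2, at 1631, 1409 and 1648. Dsp and Lct were highest on array 2, at 206, 288 and 179.5 and at 296, 412 and 255. No marker was at 0 on any array, but this does not show that each was detected. The dentate marker Prox1, for example, gave 26.7, 10.6 and 47.8, below the highest bacterial control of each array. The part of the RNA control and marker differences in the Crebbp and coactivator values was not tested. The 4 CA1 pyramidal markers represented on the arrays all exceeded the threshold on each of them, as did 52.9% of all named genes. All represented astrocyte, oligodendrocyte and microglia markers did so too, so this cannot check the tissue label.

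Genes whose values across the arrays were most like those of Crebbp were found by the root-mean-square difference of centred log2 signal over the 3 arrays. Of 4875 other genes above threshold, Aopep was nearest at 0.005, followed by Zmynd8 at 0.014 and Pla2g10 at 0.037. Aopep gave 2072, 890.1 and 1818, Zmynd8 gave 419, 184 and 377, and Pla2g10 gave 230, 97.2 and 210. With 3 points such likeness is easily met, and 22 genes lay within 0.1 of Crebbp.

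The wider pathway was followed in 8 lists of 99 genes, of which 66 had a probe set and 48, or 72.7%, were above threshold, beside 59.1% of all named genes. On every array 52.9% of all named genes were above it, and both shares apply beside the counts of each list below. In limma 0 of the 48 passed the variance test, and 1, Jund, had an unadjusted p under 0.05. Their median log2 range was 0.40, and 3 of the 48 had arrays more than 2-fold apart.

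**Figure D4:**
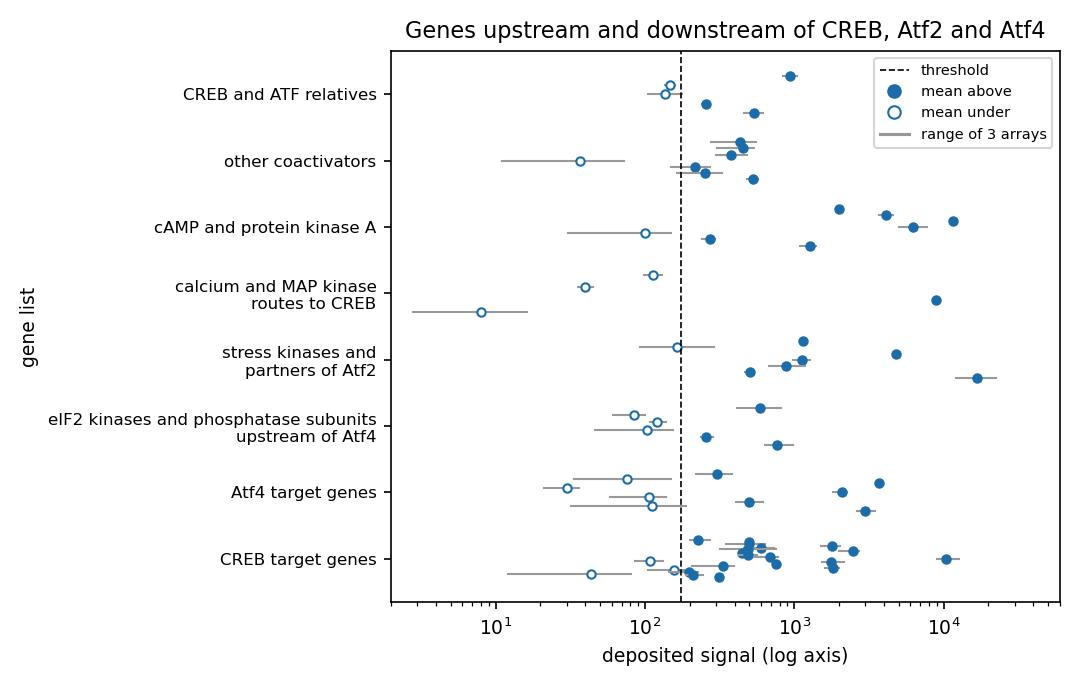
Deposited signal on a log axis for the 66 pathway genes with a probe set, by list. Points are means of 3 arrays, filled where above the dashed threshold of 174.8, and grey lines span the 3 arrays, so that the kinase A list lies mostly far to the right and the calcium and MAP kinase list mostly under threshold.

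The list of the cyclic AMP route holds kinase subunits, an inhibitor and adenylyl cyclases. Of the 7 represented genes, 6 exceeded the threshold on each array. Prkaca and Prkacb, the catalytic subunits of protein kinase A that phosphorylate CREB, gave 2006 ± 64.0 and 4135 ± 470 (SD, n = 3 arrays). The adenylyl cyclase gene Adcy8 was nearer the threshold, at 282, 242 and 293. The regulatory subunit gene Prkar2a was the one under threshold, at 118, 150 and 30.7, and so lowest on array 3. The list's median log2 range was 0.30 over the brightest probe sets of its measured genes, and 0.48 over all measured probe sets. The 2 sets were not matched for signal level, so these medians are not a like comparison. Second probe sets were left out of the 0.30. That of Prkar1b had a log2 range of 1.10, beside 0.56 at the brightest.

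The calcium and MAP kinase routes were poorly covered. Of 13 genes 4 had a probe set and 1 was above threshold, Camk2b, a subunit of the calcium and calmodulin-dependent kinase II, at 8840 ± 279 (SD, n = 3 arrays). Camk4, the nuclear kinase classically linked to CREB phosphorylation, gave 130, 98.7 and 112, under threshold on each array. Rps6ka3, which encodes the CREB kinase RSK2, gave 2.8, 16.2 and 4.9, within the range of the bacterial controls. Camk2a, an abundant forebrain transcript, was also under threshold, at 44.9, 35.4 and 38.1.

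Among kinases and partners of Atf2, 6 of the 7 represented genes exceeded the threshold on each array. The JNK genes Mapk8 and Mapk10 gave 1137 ± 59.6 and 4836 ± 236 at their brightest probe sets (SD, n = 3 arrays). A second probe set gave 22.4, 14.7 and 7.3 for Mapk8, under threshold, and 1675, 881 and 1640.5 for Mapk10. Mapk9, the third JNK gene, gave 93.0, 291 and 105, above threshold on array 2 alone. Jund, the AP-1 factor gene, gave 15397, 12134 and 22552, highest on array 3. Its unadjusted p was 0.0369 and its adjusted p 0.899 (limma).

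Upstream of Atf4, 6 of 7 genes had a probe set and 3 were above threshold. The eIF2 kinase gene Eif2ak1 gave 411, 820 and 551, highest on array 2 as Atf4 was. Ppp1r15a, which encodes the stress-induced phosphatase subunit GADD34, gave 256 ± 25.9 (SD, n = 3 arrays). Ppp1r15a was also highest on array 2, and Ppp1r15b, the other measured gene, was lowest there. The 3 other kinase genes, Eif2ak2, Eif2ak3 and Eif2ak4, had means of 84.9, 121 and 103, all under threshold.

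Of the genes that Atf4 is known to activate, 9 of 11 had a probe set and 5 were above threshold on every array. Ddit3, the CHOP gene, gave 219, 382 and 306, and Asns, the asparagine synthetase gene, gave 3821, 3618 and 3596. Ddit3 was highest on array 2 as Atf4 was, and Asns was highest on array 1. After scaling, 3 of the 5 measured targets were lowest on array 2, as were 42.3% of all measured probe sets. A second Asns probe set was under threshold on average, at 208, 72.5 and 165. The composite letters TGATGCAA, searched on both strands, occurred in the promoter windows of 3 of the 11 genes. Of all genes with a window, 1.03% had them. The match of Nupr1, a stress-induced chromatin protein gene, and one of the matches of Slc7a11, the cystine transporter gene, are shown with the letters or their reverse complement in capitals.

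Nupr1, chr7:126625562-126625591, minus strand: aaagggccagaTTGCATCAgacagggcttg
Slc7a11, chr3:50443661-50443690, minus strand: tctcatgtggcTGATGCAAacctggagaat

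Both of these genes were under threshold on average. Nupr1 gave 187, 32.2 and 118, above threshold on array 1 alone, and Slc7a11 gave 21.0, 32.9 and 36.3. The third gene with a match, Chac1, had no single-gene probe set.

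CREB target genes were counted in the same way. Of 25 genes, 21 had a probe set, 18 were above threshold and 17 were so on every array. Over all named genes the shares were 59.1% and 52.9%, and the difference was not tested. The immediate-early genes Fos and Fosb gave 227 ± 40.8 and 501 ± 16.5 (SD, n = 3 arrays). Nr4a2, an orphan nuclear receptor gene, was the one gene of the 18 whose arrays were more than 2-fold apart, at 407, 750 and 318.

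Of the 4 targets with the full CRE, 3 were above threshold on every array, as were 52.9% of all named genes. The somatostatin gene Sst, in whose promoter the element is classically studied, gave 8995, 9355 and 12622. The secretogranin gene Scg2 gave 1523, 1654 and 2144, so that it, like Sst, was highest on array 3. The phosphatase gene Dusp1 gave 779, 723 and 772, with little difference between arrays. The prohormone convertase gene Pcsk1 gave 86.5, 106 and 133, under threshold on each. These 4 were named for their promoter match and not for their signals.

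Over all genes with both a probe set and a promoter window, 147 of 208 with the full CRE were above threshold, or 70.7%, beside 3793 of 6368 without it, or 59.6%. For the core TGACG the shares were 68.4% of 2175 genes with it and 55.7% of 4401 without. For TGATGCAA they ran the other way, at 43.4% of 53 genes with it and 60.0% of 6523 without. These shares describe the arrays and carry no test.

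Among relatives in the same bZIP class, 5 of 14 genes had a probe set and 3 were above threshold on every array. Creb3l1, a membrane-bound factor released by regulated cleavage, gave 941, 847 and 1042, and Atf6, a sensor of endoplasmic reticulum stress of similar design, gave 257 ± 16.1 (SD, n = 3 arrays). Atf6b, the paralog of Atf6, gave 542 ± 79.1. Atf3, a stress-induced repressor, had 3 probe sets, all under threshold, and the brightest gave 136, 159 and 145. Atf5 gave 128, 177 and 106, with array 2 just above threshold. In limma 0 of the 3 measured relatives passed the variance test and 0 had an unadjusted p under 0.05.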

How the data were processed

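Values are the deposited signal intensity, linear in scale, of 12488 probe sets on each array. The deposited arrays share a mean signal of 500.3 after trimming 2% at each end; the program that made the values is not given in the sources used here. All 3 columns belong to the samples. Probe sets were named from the platform annotation, with symbols checked through Entrez identifiers against GRCm38.p6. Of 12422 probe sets that are not controls, 10833 had 1 gene, 396 several and 1193 none named. Pairs of arrays shared 6 to 18 identical values, so no array repeats another.

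Levels are deposited signals. For spread, arrays were scaled to a common median (factors 0.991, 0.987 and 1.02), floored at 47.5, the 25th percentile, and log2-transformed. Probe sets with a mean above 174.8 were called measured, and a gene was represented by its brightest probe set. The variance test used limma 3.58.1 in R 4.3.3 (fitFDistRobustly, tails winsorised at 0.05 and 0.1, Benjamini-Hochberg over all 6218 measured probe sets, threshold 0.05). The test was also run on data simulated from a variance distribution fitted to these values, with no outcome given here. So its power at the spreads seen for the members is not stated. Its p-values measure only the spread between these arrays, which may be technical, and the number of arrays limits precision. Promoter letters were searched in RefSeq windows.

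Members and lists were chosen with earlier results of these data known. Named genes are all members, the first 2 measured genes of each pathway list, any gene of those lists with an unadjusted p under 0.05, and the 3 genes most like the member with the widest range. Marker genes and other list genes named were chosen after their values were seen. The alternatives were other scalings, floors, thresholds, prior and probe set rules, and leaving out each array.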

Additional observations from a re-analysis of the deposited data

How the results depend on the processing

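Member levels moved by less than 1 SD under both other scalings. Leaving out 1 of 3 arrays cannot move a mean by more than that, but the mean of Crem 160526_s_at went from 47.9 to 11.9 without array 1 and that of Atf2 162010_r_at from 18.1 to 6.8 without array 3. In limma, 0 of the 4 measured member probe sets passed the variance test in the main setting. The other 5 were under threshold and had no test there. Of the member probe sets tested in each of 12 alternatives, 0 passed. The brighter Crem probe set had no test at the 75th percentile threshold or without array 3. Both weaker Creb1 probe sets and the second Atf2 probe set were tested only with no threshold. They lay at the floor on every array, so that test cannot show their spread. With plain-suffix probe sets alone, 2 members were above threshold. With the threshold at the 25th percentile of all values, 5 CREB and ATF relatives, 2 genes of the calcium and MAP kinase routes, 6 genes upstream of Atf4 and 8 Atf4 targets were above it. At the 75th percentile, 1 relative, 0 other coactivators, 3 Atf4 targets and 8 CREB targets were. Over all probe sets, the limma test made 0 calls after quantile normalization, after cyclic loess, at the 75th percentile threshold and with a prior that was not robust, where 328, 337, 178 and 333 probe sets had an unadjusted p under 0.05. It made 6 calls at the 25th percentile threshold, and from 0 to 44 without 1 array. With no threshold it made 1375 calls, in a fit where 1851 probe sets lay at the floor on every array. The cause of these changes was not tested. No paired analysis was possible because all arrays belong to 1 group. The weak Creb1 and second Crem signals limit what their spread can show.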
